A study of Drosophila melanogaster with 2 samples.

Results

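Of 5321 peaks in the optimal list of a REPTOR-GFP chromatin immunoprecipitation (ChIP-seq) experiment, 356 had their summit in no annotated gene of any biotype and more than 1000 bp from every annotated transcription start site (TSS). Transposable elements were not counted as genes. These 356 intergenic summits were 6.69% of the optimal peaks, with an exact 95% interval from 6.03% to 7.40%, while bases that met the same rule made up 25.1% of the 6 chromosome arms used (33.6 Mb). Another 1181 summits lay inside a gene and over 1000 bp from a TSS, and 3784 lay within 1000 bp of a TSS. The optimal list holds the calls that the authors kept by the irreproducible discovery rate (IDR), a measure of how far replicates rank the same calls alike. The rule used position alone and no measured signal.

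The chromatin came from whole Drosophila melanogaster embryos of mixed sex, collected over the first 24 h of development (0 to 24 h). All embryos were of a transgenic line that stably carries CG13624, the gene now named REPTOR, with GFP at the C terminus of the protein, and the pull-down used an antibody against GFP. There was 1 group of 2 biological replicates, numbered 1 and 3 in the labels, with no treatment and no second genotype, so no conditions were compared and no test was made. The tag, the expression of the transgene beside the native gene, and the mixture of all embryonic tissues and ages limit the line as a model. In such a mixture, a site bound in few cells and a site bound weakly in many cannot be told apart.

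REPTOR is a basic leucine zipper (bZIP) transcription factor that is held in the cytoplasm when the growth kinase complex TORC1 is active and enters the nucleus when TORC1 activity falls, where it acts with its partner REPTOR-BP. In flies, much of the DNA between genes near developmental regulators holds enhancers, which act on promoters at a distance, and insulators, which are bound by proteins such as CTCF and su(Hw). ChIP signal at such a place can come from a factor bound to DNA directly or through other proteins.

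The sequences at 6 of the 8 strongest intergenic summits show what the DNA under the highest signal looks like. Each is the plus strand of dm6 (Release 6, RefSeq), 5′ to 3′, and covers 201 bp centred on the summit. Capitals mark every match on either strand to any of 21 motifs searched, which include the cAMP response element TGACGTCA of bZIP dimers and its core TGACGT, DRE (TATCGATA), Motif 1 (GGTCACACT), the CTCF letters below and several E-boxes.
chinmo, 12460 bp upstream, chr2L:1638698-1638898: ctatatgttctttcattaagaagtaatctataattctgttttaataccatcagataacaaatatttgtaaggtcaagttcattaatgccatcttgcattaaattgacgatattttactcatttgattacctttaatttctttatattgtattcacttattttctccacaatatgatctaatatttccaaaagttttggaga
foxo, 5265 bp upstream, chr3R:14051580-14051780: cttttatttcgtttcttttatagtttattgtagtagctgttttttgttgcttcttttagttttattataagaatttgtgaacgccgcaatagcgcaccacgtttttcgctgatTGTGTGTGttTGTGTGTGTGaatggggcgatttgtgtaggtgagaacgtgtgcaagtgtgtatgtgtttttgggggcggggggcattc
stck, 1268 bp upstream, chr3R:8355610-8355810: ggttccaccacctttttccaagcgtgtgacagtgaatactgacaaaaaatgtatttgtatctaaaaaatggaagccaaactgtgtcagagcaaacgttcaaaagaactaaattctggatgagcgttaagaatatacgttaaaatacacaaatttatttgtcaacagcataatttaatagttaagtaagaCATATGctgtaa
chinmo, 18407 bp upstream, chr2L:1632751-1632951: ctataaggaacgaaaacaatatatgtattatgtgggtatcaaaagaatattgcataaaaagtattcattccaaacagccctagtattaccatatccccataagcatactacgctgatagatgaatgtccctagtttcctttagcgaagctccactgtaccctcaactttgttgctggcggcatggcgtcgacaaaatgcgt
Ttc30, 23006 bp upstream, chr2L:13083701-13083901: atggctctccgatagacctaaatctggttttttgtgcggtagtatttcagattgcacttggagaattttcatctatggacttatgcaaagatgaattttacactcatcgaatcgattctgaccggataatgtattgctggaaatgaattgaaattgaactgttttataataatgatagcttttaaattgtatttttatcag
alpha-Est9, 1390 bp upstream, chr3R:7506388-7506588: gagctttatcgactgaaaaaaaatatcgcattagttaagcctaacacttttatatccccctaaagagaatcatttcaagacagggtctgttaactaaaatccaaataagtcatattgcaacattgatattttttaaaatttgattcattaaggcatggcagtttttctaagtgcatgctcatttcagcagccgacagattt
Only 2 of these 6 windows held a match to any of the 21. Matches to 3 further motifs searched, those of BEAF-32, homeodomain factors and poly(A), are not marked. The window near foxo held a run of CA repeats on its minus strand, and the window near stck held the E-box CATATG close to its edge. None of the 6 held TGACGT on either strand.

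Of the 24 motifs searched, the one with the highest share at members relative to tiled windows of the same DNA was that of the insulator protein CTCF, spelled AGATGGCGC or AGGTGGCGC on either strand. Of the members with such a match within 50 bp of the summit, 6 follow. Not all chromosome arms entered this choice, so stronger members with a match may be missing. Each window is 101 bp of the plus strand of dm6 centred on the summit, with the match in capitals.
soti and cv-c, chr3R:14391358-14391458: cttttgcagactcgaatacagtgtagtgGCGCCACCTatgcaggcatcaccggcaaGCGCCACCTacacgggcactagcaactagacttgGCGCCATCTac
Sid, chr3R:28672348-28672448: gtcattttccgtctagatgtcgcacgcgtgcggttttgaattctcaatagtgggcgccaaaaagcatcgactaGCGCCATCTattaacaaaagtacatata
Gr89a, chr3R:16497507-16497607: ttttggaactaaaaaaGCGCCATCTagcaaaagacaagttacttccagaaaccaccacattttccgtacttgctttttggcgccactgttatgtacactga
Jhbp1, chr3R:4970792-4970892: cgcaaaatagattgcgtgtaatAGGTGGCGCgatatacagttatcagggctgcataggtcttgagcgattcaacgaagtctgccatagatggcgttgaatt
CadN, chr2L:17784756-17784856: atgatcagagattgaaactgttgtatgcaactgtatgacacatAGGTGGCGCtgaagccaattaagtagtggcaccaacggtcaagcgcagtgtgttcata
Ldh, chr3L:6264599-6264699: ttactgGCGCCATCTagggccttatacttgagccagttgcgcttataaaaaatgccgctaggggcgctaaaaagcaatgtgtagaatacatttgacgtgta
A second spelling, AGATGTCGC or AGGTGTCGC, was picked out after counting all 8-base words at the members, and no factor is assigned to it here. It is shown in capitals at 3 further members, in windows of the same length and strand.
abd-A and Glut3, chr3R:16798840-16798940: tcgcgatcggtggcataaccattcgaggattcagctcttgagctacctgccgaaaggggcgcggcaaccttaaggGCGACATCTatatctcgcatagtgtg
Sox21a, chr3L:14111538-14111638: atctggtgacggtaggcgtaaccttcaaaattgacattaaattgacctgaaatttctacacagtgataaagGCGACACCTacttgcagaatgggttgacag
kni and CG34260, chr3L:20711554-20711654: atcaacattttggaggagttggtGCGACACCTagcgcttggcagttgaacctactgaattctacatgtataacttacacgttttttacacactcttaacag
The window between soti and cv-c held 3 separate CTCF matches, all read from the minus strand. The window near Sid also held 1 match to the second spelling.

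The windows of 101 bp at the members beside Thor and Atf3 are shown because Thor, the gene of the translation inhibitor 4E-BP, is a known output of TORC1 signalling and Atf3 encodes a bZIP factor, as REPTOR does. Both are plus strand of dm6 and centred on the summit. Neither held a match to any of the 21 motifs, so no letters are in capitals.
Thor, 1539 bp downstream of its TSS, chr2L:3480011-3480111: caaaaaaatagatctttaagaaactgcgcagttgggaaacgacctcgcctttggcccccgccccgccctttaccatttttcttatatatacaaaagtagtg
Atf3, 1926 bp upstream, chrX:1277160-1277260: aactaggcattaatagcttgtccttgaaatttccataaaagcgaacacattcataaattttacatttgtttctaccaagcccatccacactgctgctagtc

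Members with the CTCF letters numbered 10 of 356 (2.81%, exact 95% interval 1.36% to 5.11%). The same letters stood in 2 of 712 windows placed 500 bp to both sides of the same summits (0.281%), and in 0.109% of all 326651 tiled windows of 101 bp within the bases of the rule. Summits inside genes had them in 1.95% of cases and summits within 1000 bp of a TSS in 1.14%. Without replicate 3 the share at intergenic summits was 4.36% (2.51% to 6.98%), and without replicate 1 it was 3.26%. The interval for members does not reach the share of the flanking or tiled windows, and it takes in the share at summits inside genes.

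The second spelling was found at 11 members (3.09%, 1.55% to 5.46%), in 0 of 712 flanking windows, which allows a share of up to 0.421%, and in 0.0698% of tiled windows. It was at 0.254% of summits inside genes and 0.396% of summits near a TSS, both below the interval for members. Since the letters were chosen from these members, the counts describe them and are no separate evidence.

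Of the CTCF letters alone, 34 matches lay within 500 bp of the 356 members, and 13 of them had their centre within 50 bp of the summit. The bins from 100 to 51 bp before the summit and from 50 to 1 bp before it held 7 matches each, the next 50 bp held 6, and the 50 bp after those held 3. At members the nearest bins before and after the summit thus had 1.97 and 1.69 matches for 100 peaks. Summits inside genes had 1.35 and 0.931 in the same bins, and summits near a TSS had 0.634 and 0.661. The members' values rest on 7 and 6 matches, and these are not all from separate members. The member between soti and cv-c alone gave matches at −18, 10 and 44 bp from its summit.

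**Figure D1:**
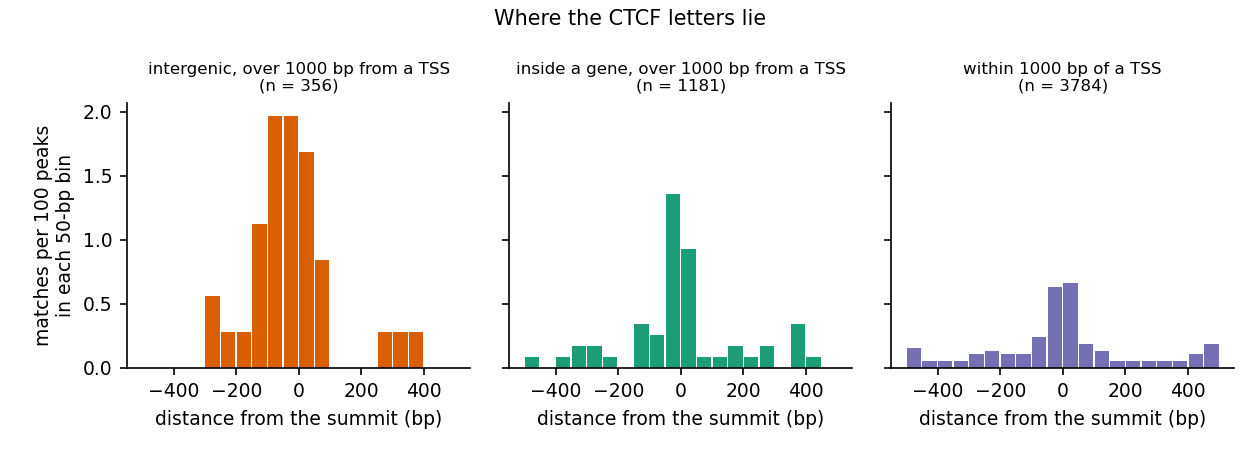
Matches to the CTCF letters for 100 peaks, in 50-bp bins of distance from the summit (x axis, bp), for the 356 intergenic members (left), summits inside genes (middle) and summits within 1000 bp of a TSS (right). The 2 bins next to the intergenic summits reach 1.97 and 1.69 matches for 100 peaks, and the bin from 100 to 51 bp before the summit also reaches 1.97.

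Off arm 2R, the strongest members with either spelling ranked 21 and 25 of the 356 by pooled signal. Among the 178 stronger members 8 held the CTCF letters (4.49%, 1.96% to 8.66%), against 2 of the 178 weaker ones (1.12%, 0.136% to 4.00%), and these intervals overlap. The second spelling was at 6 of the stronger and 5 of the weaker members. Of the 6 members shown with the CTCF letters, the strongest, at chr3R:14391408 between soti and cv-c, had a pooled signal of 311. It had 184 in replicate 1 and 118 in replicate 3. The member near Sid, at chr3R:28672398, had 258, with 137 in replicate 1 and 122 in replicate 3.

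The other 4 shown had lower signals. Their pooled signals were 164 near the gustatory receptor gene Gr89a, 146 near Jhbp1, 139.6 near CadN, which encodes N-cadherin, and 132 near Ldh, which encodes lactate dehydrogenase. Of the second spelling, the strongest member shown stood at chr3R:16798890 in the DNA between Glut3 and the Hox gene abd-A. It had a pooled signal of 323 and replicate signals of 157 and 164. That summit was 29215 bp from the abd-A start. The member beside the SoxB gene Sox21a had 186.

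Among the other motifs, the short core TGCATAC of su(Hw), a further insulator protein, was at 11 members (3.09%, 1.55% to 5.46%), against 1.26% of flanking windows, 1.41% of tiled windows and 2.71% of summits inside genes. Without replicate 1 its share was 1.90% (0.768% to 3.88%), an interval that takes in the flanking and tiled shares. The word CACTGAGA, also chosen after its count was seen, was at 11 members (3.09%), 0.140% of flanking windows and 0.332% of tiled windows, and at 2.20% of summits inside genes. At rule summits of replicate 1 alone its share was 1.91%, and at those of replicate 3 alone it was 3.26%. No factor is assigned to this word here.

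Motifs of promoter factors differed between members and summits near a TSS. DRE, the site of the promoter factor DREF, was at 3 members (0.843%, 0.174% to 2.44%), at 4.84% of summits near a TSS, and at 0.281% of flanking windows, 0.209% of tiled windows and 0.254% of summits inside genes, all within the members' interval. Motif 1, the site of the promoter-pausing factor M1BP, was at 1 member, near slp1 and slp2, and at 2.25% of summits near a TSS. CGATA, a core of the insulator protein BEAF-32, was at 12.1% of members (8.88% to 15.9%), 11.4% of flanking windows, 10.5% of tiled windows and 26.5% of summits near a TSS. The 3 members with DRE ranked 322, 324 and 349 among the 356 by signal and lay next to SrpRbeta, Tpr2 and jing.

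The cAMP response element was no more common at members than around them. The full element TGACGTCA was at 0 of 356 members, which allows a share of up to 0.843%, and its core TGACGT was at 5 (1.40%, 0.458% to 3.25%), against 2.11% of flanking windows and 2.13% of tiled windows. GATAAG, bound by GATA factors, was at 5.62% of members and 5.76% of flanking windows. GTAAACA, bound by forkhead factors such as FOXO, was at 2.53% of members and 2.11% of flanking windows. Both differences were within the intervals for members. A match is a description of letters and no proof of a site, and the absence of letters says nothing of the factor.

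**Figure D2:**
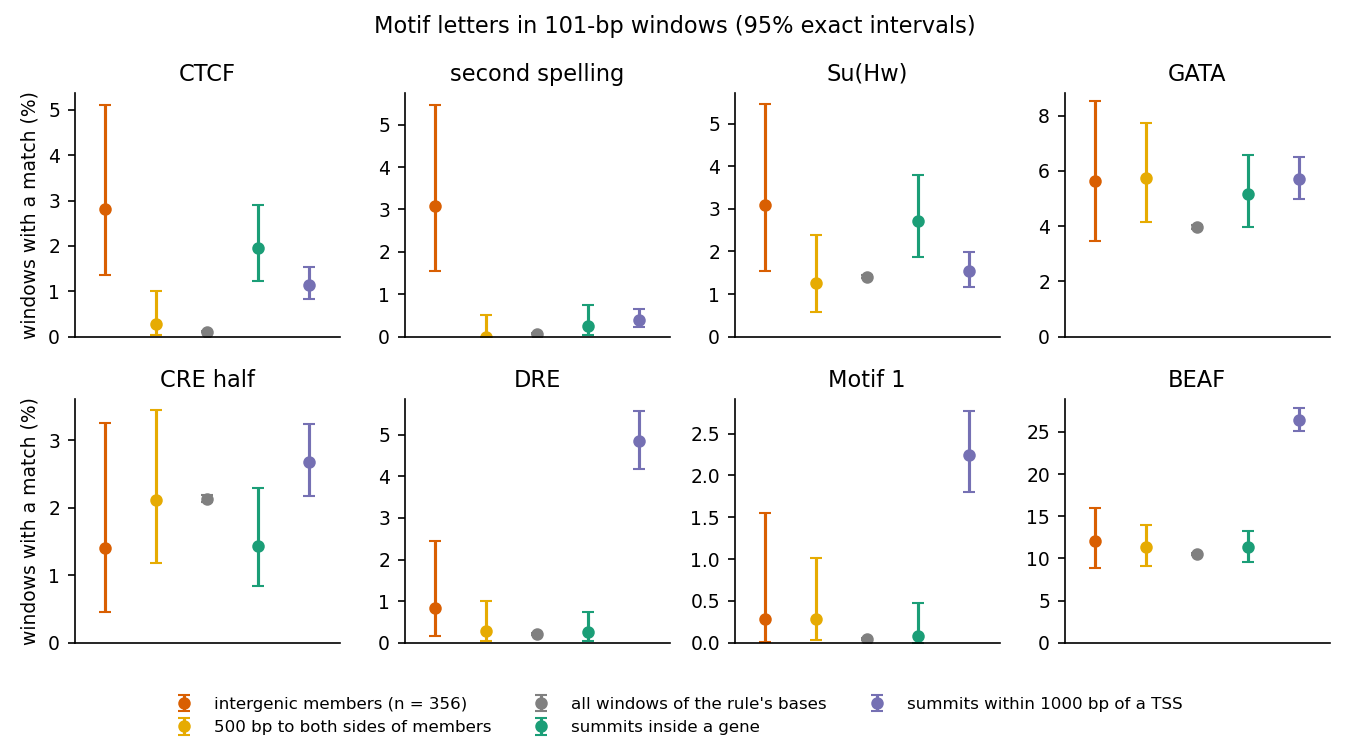
Share of 101-bp windows with a match (y axis, %), with exact 95% intervals, for 8 motifs in 5 sets of windows, the 356 intergenic members at the left of each panel. CTCF letters and the second spelling, which was chosen from these members, stand above the flanking and tiled windows at members, and DRE, Motif 1 and the BEAF-32 core stand high at summits within 1000 bp of a TSS.

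Members had a lower mean content of G and C than the DNA beside them. GC content averaged 37.0% ± 8.84 at members (SD, 356 windows), 40.8% ± 9.50 in the flanking windows, 41.0% ± 9.70 in tiled windows, 35.9% at summits inside genes and 40.1% near a TSS. The difference from the flanks was smaller than the SD among members. That SD is the spread of single windows and not the error of a mean. Annotated transposable elements were rare under the summits. They held 2 summits (0.562%, 0.0681% to 2.01%), and 8 members overlapped one at any base (2.25%), while 11.4% of the bases of the rule lay in one. Soft-masked repeat letters made up 17.1% of the members' windows and 27.1% of the bases of the rule. Whether reads map as well in repeats was not tested.

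The signal of a call is a value computed by the authors' caller for each peak, and it ranks calls within a list. The pooled signal of the members had a median of 114, with quartiles of 95.7 and 162 and a range of 78.02 to 953.7. The median was 119 at summits inside genes, 127 near a TSS and 125 over all optimal peaks, so the members overlapped the other classes over nearly their whole range. Of the 100 strongest optimal peaks 6 were members, of the 500 strongest 25, and of the 1000 strongest 54.

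Most members had the same width of 436 bp. Those 284 had a median signal of 105, and the 70 narrower ones had a median of 253.

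Bases of the rule carried fewer summits than other bases. There were 10.6 members for each Mb of such DNA, 17.2 summits for each Mb inside genes away from TSSs and 119.8 for each Mb within 1000 bp of a TSS. Among all 1537 summits over 1000 bp from a TSS, members made up 23.2% (21.1% to 25.4%), while the rule took 32.9% of bases at that distance. By arm, members numbered 78 on 2L, 56 on 2R, 101 on 3L, 69 on 3R, 48 on X and 4 on chromosome 4. For each Mb of the rule's bases this was 12.8, 8.07, 11.9, 9.83, 9.81 and 18.4 in the same order, the last from 4 summits alone.

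Below the optimal list, intergenic summits took a larger share of calls. Of the 3488 calls in the authors' pooled list that met the rule, 10.2% were in the optimal list (9.22% to 11.3%), beside 17.7% of all its 30000 calls. Among the 500 strongest pooled calls 5.0% met the rule (3.26% to 7.29%), and among ranks 4001 to 5321 it was 6.74% (5.45% to 8.23%). Within the optimal list the share was highest at ranks 3001 to 4000, at 9.2% (7.48% to 11.2%). Below the list it was 10.2% at ranks 5322 to 10642, which lies within that interval. At ranks 25001 to 30000 it was 14.4% (13.4% to 15.4%). All of these stayed below the 25.1% of bases that meet the rule. The pooled list takes in background calls, and how much of the lower ranks is background was not tested.

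**Figure D3:**
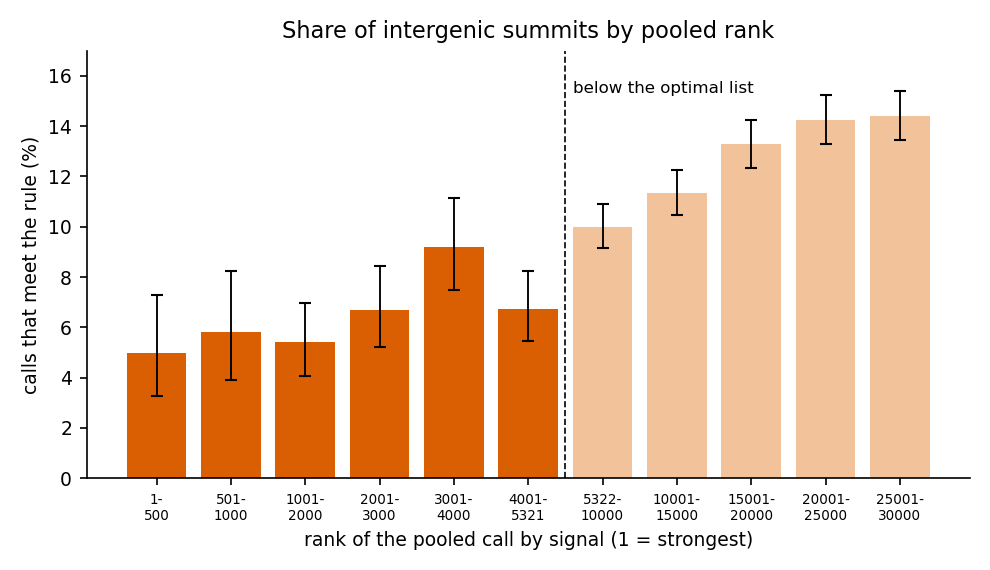
Share of calls that meet the rule (y axis, %) in bins of pooled rank (x axis, 1 is the strongest call), with exact 95% intervals. Dark bars are bins of the optimal list, from 5.0% to 9.2%, and pale bars lie below it and reach 14.4%.

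Each replicate list was called on its own. All 356 members overlapped a call by at least 1 bp in both replicates (100%, 99.0% to 100%), beside 99.7% of all optimal peaks. Both lists also held background calls, and the optimal list was itself chosen for agreement between replicates, so this overlap is a description. Counting only the 5321 strongest calls of each replicate, 279 members (78.4%, 73.7% to 82.5%) were found in both, against 78.6% of all optimal peaks.

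Replicate signals of members had a median of 59.2 in replicate 1 (23.0 to 464) and 60.5 in replicate 3 (22.4 to 483). On the log2 scale, replicate 1 over replicate 3 was −0.06 at the median with a spread (SD) of 0.47 among members, beside −0.04 and 0.48 over all optimal peaks. Members more than 2-fold apart numbered 19 (5.34%, 3.24% to 8.21%), beside 4.54% of all optimal peaks. Of the 19, 11 were higher in replicate 1 and 8 in replicate 3. As a description over members, which share both libraries, the Spearman rank correlation was 0.67, and it was 0.74 over all optimal peaks.

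The 3 widest gaps in each direction were as follows. Toward replicate 3, the member between MED6 and CG9471 had 23.4 in replicate 1 and 73.0 in replicate 3, a log2 ratio of −1.64, followed by those at Rilpl and futsch (−1.39) and at Ugt37C1 and IntS8 (−1.19). Toward replicate 1, the member near Ip6k had 62.4 in replicate 1 and 22.5 in replicate 3, a log2 ratio of 1.47, followed by those at CG15429 and Atet (1.39) and at SrpRbeta (1.32). The pooled signals of these 6 were between 79.5 and 100.4, below the members' median of 114. Stronger members were among the 19 as well, such as that between Aldh-III and wech, with a pooled signal of 225 and a log2 ratio of 1.13, named after its values were seen. For 20 members (5.62%) a replicate call was shared with another optimal peak, so these replicate values are not separate measurements.

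**Figure D4:**
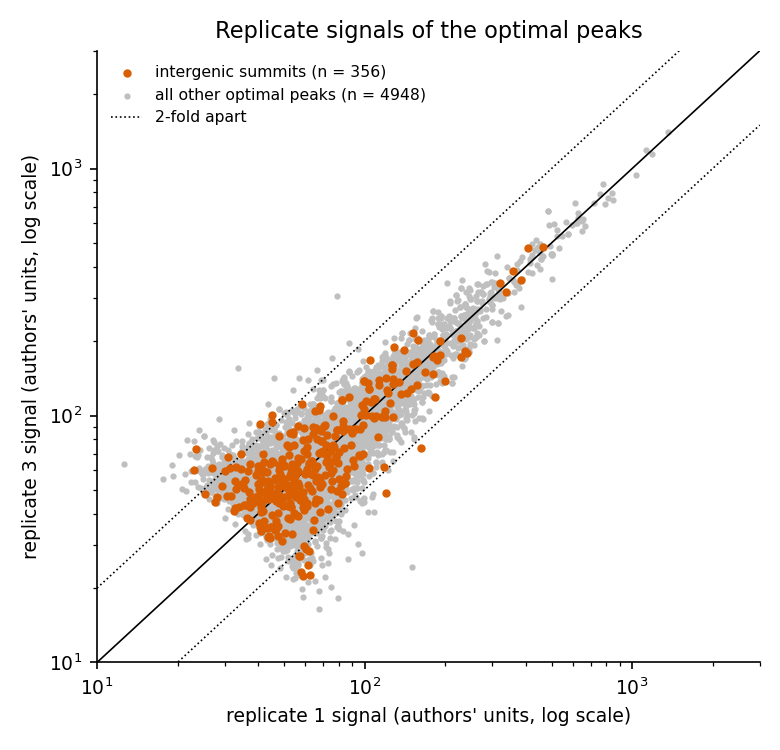
Signal in replicate 1 (x axis, log scale) against replicate 3 (y axis, log scale) for the 356 intergenic summits (orange) and the other optimal peaks with a call in both (grey). Dotted lines mark 2-fold, and 19 members lie beyond them.

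The strongest member of all lay at chr2R:13035337, in the DNA between Su(z)2, a Polycomb group gene, and CG13323. Its pooled signal was 953.7, with 464 in replicate 1 and 483 in replicate 3, where it ranked 36 and 34. It stood 11919 bp from the nearest TSS, that of CG13323, and 38214 bp from that of Su(z)2. Its interval held 4 members.

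The region upstream of chinmo held the most members. The gene encodes a BTB zinc-finger protein that sets the order in which neuronal fates are made. Its 7 members lay in an interval of 20910 bp between 2 long non-coding RNA genes (chr2L:1626022-1646931), from 22976 to 7844 bp upstream of the chinmo TSS. In that order, their pooled signals were 210, 89.2, 657, 273, 100.1, 886 and 337. In replicate 1 their signals ran from 51.8 to 410, and in replicate 3 from 37.7 to 477. The same member, at chr2L:1638798, was the highest in both replicates, with 410 and 477, and the second in both was at chr2L:1632851, with 339 and 316. The lowest was not the same, since it stood at chr2L:1629742 in replicate 1 and at chr2L:1636707 in replicate 3. For the 2 members farthest from chinmo, the start of RFeSP, which encodes a subunit of mitochondrial complex III, was closer on the other side.

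The next intervals by number were all on 3L and held 5 members each. One, of 75047 bp between NijA, which encodes the cell surface protein Ninjurin A, and CG43245, had its strongest member at chr3L:10740065 with a pooled signal of 371, with 151 in replicate 1 and 216 in replicate 3. Another, between a non-coding RNA gene and CG7560, had pooled signals from 94.9 to 255. Of its members, a pair with summits at chr3L:11418382 and chr3L:11418583 shared 1 call of replicate 1 with a signal of 120, and in replicate 3 they had 141 and 48.4.

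The third of these intervals lay between the patterning gene hry, also called hairy, and SrpRbeta, with a non-coding RNA gene as its left end, and held pooled signals from 82.6 to 229. In it 4 of the 5 members formed 2 pairs whose summits were close enough to share the same calls in both replicates. Counted by call, this interval therefore held 3 places.

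The foxo gene encodes the forkhead factor that insulin signalling keeps out of the nucleus. Upstream of it were 3 members, at 5265, 4548 and 3291 bp from its TSS (chr3R:14051680, chr3R:14052397 and chr3R:14053654). Their pooled signals were 736, 315 and 176. In replicate 1 they had 385, 129 and 118, and in replicate 3 they had 354, 189 and 62.1, so the member farthest from the gene was the highest and the nearest the lowest in both.

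**Figure D5:**
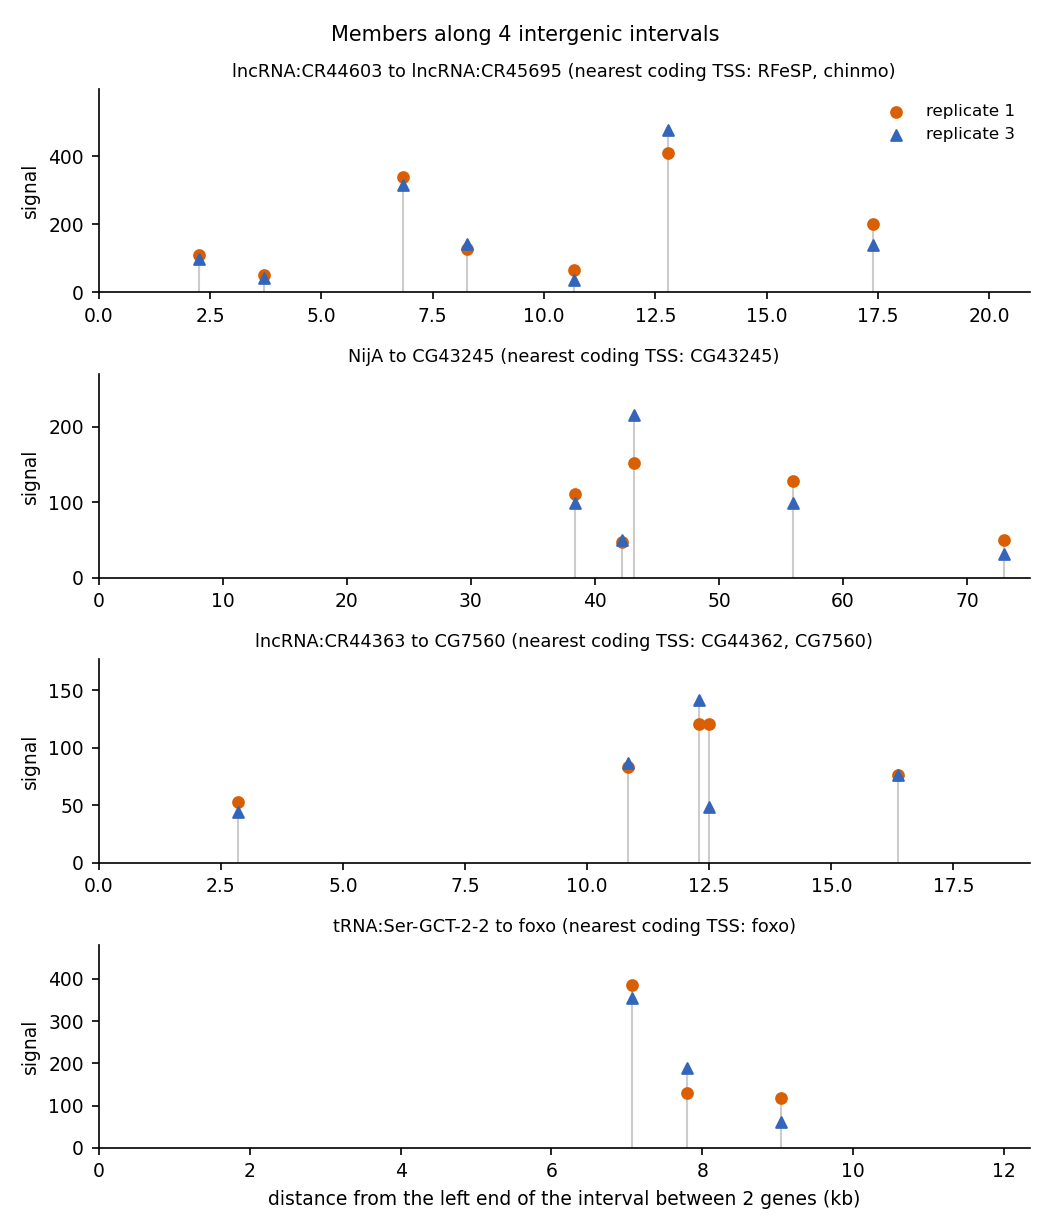
Replicate 1 (circles) and replicate 3 (triangles) signals of members (y axis) along 4 intergenic intervals (x axis, kb from the left end of the interval): the 7 upstream of chinmo, 5 between NijA and CG43245, 5 next to CG7560, and 3 upstream of foxo. The highest member of the chinmo interval reaches 410 and 477, and that of the foxo interval 385 and 354.

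Other members among the 15 strongest stood near genes of varied function. At chr2R:22802968, between blw, which encodes an ATP synthase subunit, and CycB, which encodes cyclin B, the pooled signal was 748, with 359 in replicate 1 and 385 in replicate 3. The member at chr3R:8355710 was 1268 bp upstream of stck, which encodes an adaptor of integrin adhesion, with Atg13, an autophagy gene, at 5895 bp on the other side. It had 664, with 321 in replicate 1 and 345 in replicate 3. Both ranked among the 100 strongest calls of each replicate.

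From there the signals were lower. The member between CG9932 and the ciliary transport gene Ttc30 had 437, that beside the carboxylesterase gene alpha-Est9 had 425, that between DNAlig3, a DNA ligase gene, and the cytochrome P450 gene Cyp9f2 had 417, and that on chromosome 4 between dati and lgs had 399. These 4 were all higher in replicate 1, with 229, 242, 238 and 228, than in replicate 3, with 205, 180, 182 and 173, and none was 2-fold apart. The member beside the cuticle protein gene Cpr76Ba had 361. The member between slp1 and slp2, a pair of forkhead segmentation genes, had 360, with 158 in replicate 1 and 201 in replicate 3.

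Lists of genes were set beside the members by the protein-coding TSSs on each side of a summit. Of 13945 protein-coding genes, 3.64% (507) were such neighbours. Each list is read beside the share of the rule's bases that lie next to its genes, since genes with wide surroundings meet more summits by position alone. The intervals count summits at the same gene as independent, and the lists were chosen with earlier results of these data known.

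The list of TORC1 and insulin signalling genes holds regulators of TORC1 as well as outputs such as Thor. Its genes were next to 11 members (3.09%, 1.55% to 5.46%), while 0.387% of the rule's bases lay next to them. These were 6 of the 38 genes matched, and foxo and Myc had 3 members each and scyl 2. The member beside Thor, at chr2L:3480061 and 1539 bp past its TSS beyond the end of the gene, had a pooled signal of 386, with 191 in replicate 1 and 201 in replicate 3. The scyl gene encodes an inhibitor of TORC1, and its stronger member lay 8129 bp away with 230. Of the 3 members next to the growth regulator Myc, the strongest had 221 and lay 12632 bp upstream, and it shared its calls in both replicates with the second, at 145. Both lay nearer to the TSS of a gene that codes for no protein, at 3159 and 2946 bp.

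Members of this list with lower signals were those near Sesn, which encodes the stress-induced TORC1 inhibitor sestrin, with 141, and near Pdk1, a kinase of the insulin pathway, with 82.2. By the nearest gene body instead of the nearest TSSs, 8 members belonged to the list.

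Patterning and homeodomain transcription factors, which lay out the embryonic axes and segments, were next to 47 members (13.2%, 9.86% to 17.2%), against 6.39% of the rule's bases. They took in 33 of 107 genes (30.8%, beside 3.64% of all). Several members stood at the same gene, such as hry and oc, and each was counted singly, also where they shared calls. The strongest were the member at slp1 and slp2 (360), that at abd-A (323) and that at hry (229). By the nearest gene body the count was 31 members (8.71%, 5.99% to 12.1%), an interval that takes in the 6.39% of bases, which were counted by TSSs.

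Genes of cell surface proteins that wire neurons ran the other way. They had 4 members (1.12%, 0.307% to 2.85%), while 6.79% of the rule's bases lay next to them. These were the members next to dpr17 (330), robo2 (218), CadN (139.6) and Tollo (117). Chemoreceptor genes also had 4 members (1.12%), next to Or45b, Gr89a, Gr93a and Gr93d, against 3.31% of bases. For both lists the interval lies below the share of bases.

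For the other lists the interval took in the share of bases. There were 4 members (1.12%) next to genes of secreted signals, against 0.979% of bases, with upd1 and upd3, ligands of the JAK/STAT pathway, at the strongest (179), then the Wnt genes Wnt4 and wg (109.8), dpp (106) and vn (95.98). Genes of bZIP factors had 2 members (0.562%, against 0.397% of bases). One lay 1926 bp upstream of Atf3, a stress-responsive bZIP gene, with a pooled signal of 366, with 192 in replicate 1 and 176 in replicate 3, and the other beside CrebA had 78.2, near the lowest signal of any member.

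Ribosomal protein genes had 3 members (0.843%, against 1.65% of bases), beside RpS15Aa (146), RpL17 (127) and RpLP0 (118). Cuticle protein genes had 2 (0.562%, against 0.715%), beside Cpr76Ba (361) and beside Cpr65Eb and Cpr65Ec (78.9). Nuclear receptor genes had 2 (0.562%, against 0.692%), beside kni (155), which is also in the patterning list, and Eip75B (97.0).

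The promoters of neighbouring genes were also examined for summits. For 121 members (34.0%, 29.1% to 39.2%) the nearest protein-coding gene had an optimal summit within 1000 bp of one of its TSSs, while 10.4% of the rule's bases had such a nearest gene. Over all protein-coding genes 30.3% had a promoter summit, a share within the members' interval. The difference from bases was present at each distance. For members up to 2000 bp from that TSS the share was 43.0% (32.4% to 54.2%), against 12.8% of bases at the same distance, and for those over 10000 bp away it was 32.1% (22.4% to 43.2%), against 8.04% of bases. These bins were chosen after the overall share was seen. Only some of the genes named above are listed here. Of these, chinmo, foxo, Thor, stck, Atf3, scyl and Myc had a promoter summit, and slp2, CG43245 and CG7560 had none. As a picked part of those named, they do not give the share over members.

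Members lay nearer to protein-coding TSSs than the bases of the rule. Up to 2000 bp from one were 24.2% of members and 9.43% of bases, and over 10000 bp away were 23.6% of members and 49.3% of bases. Members upstream of the nearest protein-coding TSS made up 57.3% (52.0% to 62.5%), against 57.2% of the rule's bases. Intervals between divergent genes held 22.5% of members (19.2% of bases), tandem ones 49.4% (50.1%) and convergent ones 28.1% (26.7%). The interval of each of these 3 shares took in the share of bases. The DNA between the last gene and the end of an arm held 0 members, which allows up to 0.843%, against 4.03% of bases.

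The nearest TSS of any kind was at a median of 3196 bp, with quartiles of 1706 and 5630 bp. It was over 5000 bp away for 105 members (29.5%) and over 10000 bp for 40 (11.2%), and for 118 members (33.1%) it was that of a gene that codes for no protein. The farthest were a member between bab1 and bab2, paralogous genes of limb and pigment patterning, at 37731 bp (pooled signal 122), one near jing and Pld at 36784 bp (96.8), which overlapped transposable elements, and one between NijA and CG43245 at 36622 bp (204).

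At the other end of the rule, the members just inside the distance of 1000 bp were near RabGGTa, at 1015 bp with a pooled signal of 151, and near ex, at 1020 bp with 114. Just outside it were summits near jp, at 969 bp with 119, and near CG9498, at 965 bp with 244. The signals on the 2 sides overlap.

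The spacing of summits was counted within 5000 bp. Another optimal summit stood that close to 167 members (46.9%), against 62.0% of all optimal peaks. Another member stood within 5000 bp of 90 (25.3%). The 356 members fell into 285 intervals between genes, and 46 of these held more than 1, with 117 members among them.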

How the data were processed

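Peak lists on dm6 were used as deposited. Per the notes deposited with the samples, the authors called each replicate with a control file, called both replicates together for the pooled list, and derived the optimal list from these. Which aligner and peak caller they used is not given in the sources used here, and read depth is unknown, so precision rests on numbers of peaks. The signal of each call and its −log10 q were computed by the authors. The −log10 q was not used in a result. The deposited summit offset gave positions (1-based). The dm3 lists and the control data were not analysed here.

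Summits were placed on the Ensembl release 115 annotation and the RefSeq Release 6 genome with Python 3.11.15, pandas 2.3.3, numpy 2.4.6 and scipy 1.17.1. A replicate value is that of the strongest call overlapping by at least 1 bp. Shares carry exact Clopper-Pearson 95% intervals, which treat peaks as independent and leave out all but counting error. Where a count was 0, the upper limit is that of 3 counts. Flanking windows lay 500 bp to both sides. They were not held to the rule and can lie in a gene or near a TSS. Tiled windows lay wholly within bases of the rule, so some bases at the edges were left out. A list gene is next to a member when its TSS is the nearest protein-coding one on either side. Older gene symbols were matched through RefSeq synonyms, and 3 list entries matched none. The rule, the matching of calls and the motif counts were tested on simulated data.

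Motifs were searched on both strands: DRE TATCGATA, Motif 1 GGTCACACT, CTCF AGATGGCGC or AGGTGGCGC, GATA factors (GATAAG), FOXO GTAAACA, bHLH E-boxes (CAGCTG and CATATG), a bHLH-Zip E-box (CACGTG), the twist E-box (CACATGT), the snail E-box (CAGGTG), CRE TGACGTCA and its core TGACGT, AP-1 TGACTCA or TGAGTCA, C/EBP TTGCGCAA, C/EBP-ATF TGATGCAA, GAGA factor (GAGAGAG), CA repeat CACACACA, Zelda CAGGTAG, homeodomain TAATTA, BEAF-32 CGATA, su(Hw) TGCATAC, Mef2 TATTTATA, poly(A) AAAAAAAA, and Pangolin TTTGATCT or TTTGATGT. DRE contains CGATA, and the CRE contains its core. The homeodomain, BEAF-32 and poly(A) letters were counted and not put in capitals.

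Named are the 15 strongest members, the intervals with most members, up to 4 genes for each of 9 lists, extremes of replicate ratio and distance, members with CTCF, DRE or Motif 1, and those nearest to the distance threshold. Others, such as hry and the lower foxo members, were chosen after their values were seen. The members and lists were chosen with earlier results of these data known.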

Additional observations from a re-analysis of the deposited data

How the results depend on the processing

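The share of optimal peaks that met the rule, 6.69%, was 5.94% in the stricter list of the 2660 strongest peaks. It was 8.80% at 500 bp and 4.49% at 2000 bp from a TSS, and 9.38% with protein-coding genes alone. Among the 5321 strongest calls of either replicate alone, which were not chosen by IDR, 6.90% to 6.92% met the rule. The median pooled signal was 174 in the stricter list, by its construction. Overlap with a call in both replicates fell to 89.0% when 50% of both intervals had to overlap and to 97.5% for summits within 100 bp. All of the stricter list (100%) were among the strongest calls of both. Another member was within 2000 bp of 16.0% and within 10000 bp of 35.1%. A peak overlapped a transposable element at any base in 2.25%. Among as many pooled calls just below the optimal list 10.2% met the rule. CTCF letters were at 0% of flanking windows placed 1000 bp away. They were at 3.26% to 4.36% of rule summits among the 5321 strongest calls of either replicate alone. Of these results, 14 further alternatives were counted as staying within the interval or spread of the value reported. For the log2 ratio and GC content that spread was the SD of single members, which a median or mean would hardly leave. The number of members over 2-fold apart had no interval, and was 23 and 18 in its alternatives beside 19. Of lesser results, 44 stayed so and 4 did not: patterning and nuclear receptor genes by gene body (8.71% and 0%), DRE in the stricter list (0%), and Motif 1 in flanks 1000 bp away (0%). No paired analysis was possible because there was a single group. The read depth behind each signal is unknown.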
